A study of Mus musculus with 54 samples.

Results

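The expression of 10 genes (Zpld1, Tox2, Tlcd1, Dpysl5, Ammecr1, Prkcd, Gem, St3gal4, Slc24a4 and Hacd1) was followed across the sides of single mouse ovarian follicles with and without ovulation induction. They were selected, out of 25149 genes in the tables, on measured values: a difference between follicle sides without hCG, a lower level post-hCG, or a side difference that changed with hCG. In those contrasts their values are therefore given as a description. Secondary follicles of CD-1 mice aged 14 to 16 days had been grown in alginate for 8 days and then kept for 12 h in maturation medium with FSH and EGF, to which hCG, an analog of luteinizing hormone (LH), was added for the post-hCG groups only. The cumulus-oocyte complex was removed and the wall microdissected, so that each library held RNA of one side of a follicle wall. The groups were 15 libraries of the putative unruptured side and 14 of the putative ruptured side, both without hCG, and 12 libraries of the unruptured side and 13 of the ruptured side post-hCG. The putative sides were assigned from the optical density of intact follicles, whereas the sides post-hCG were cut at the rupture site itself.

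In a growing follicle, FSH binds its receptor on granulosa cells and acts through cAMP to raise aromatase, the subunits of inhibin and activin, and the LH receptor. The LH surge, or hCG in its place, then acts on follicles in that state, ends estradiol synthesis and starts luteinization. Theca cells surround the granulosa layer outside the basal lamina and supply androgen for aromatase. Both media contained FSH, so the comparison of media is one of hCG added to FSH.

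Total counts per library ranged from 1497138 to 2834794 with a median of 2157135, and the putative ruptured side had the lowest group median, 1744948. The sample labels name the tissue cumulus-oocyte complex. The defining oocyte genes were at a summed median of 0.2 TPM or less in each group, with up to 158 TPM in the highest library of the putative unruptured side. The 5 cumulus markers summed to medians of 43.3 and 50.1 TPM on the putative unruptured and ruptured sides. Post-hCG their summed medians were 31.7 and 22.6 TPM. Whether cumulus cells remained was not tested. The 10 granulosa markers, 9 of which also belong to the FSH program list used below, summed to a median of 2680 TPM in putative unruptured libraries and 10500 TPM in putative ruptured libraries, and to 1430 and 1200 TPM in the corresponding post-hCG groups. The 11 theca and stroma markers went the other way between sides, with summed medians of 539 TPM (range 37.4 to 2790) on the putative unruptured side against 43.1 TPM (6.85 to 577) on the putative ruptured side, and 351 TPM (77.6 to 1340) against 7.51 TPM (3.84 to 55.4) post-hCG. Smooth muscle markers (5 genes, summed medians of 33.3 and 4.68 TPM) and immune markers (6 genes, 30.4 and 0.52 TPM) also had lower summed medians on the putative ruptured side, with overlapping ranges. Single genes carried both sums, Acta2 with medians of 29.1 and 3.53 TPM and Lyz2 with 29.7 and 0 TPM, while Ptprc, Cd3e and Itgam had medians of 0 on both putative sides. Cd68 (0.6 and 0 TPM) and Adgre1 (0.09 and 0 TPM) were low but went in the direction of Lyz2. Post-hCG the medians on the unruptured and ruptured sides were 4.18 and 1.29 TPM for smooth muscle and 12.3 and 0.64 TPM for immune markers. The part of these cells in the side differences of the 10 genes was not tested beyond the correlations within groups given further on. In such bulk samples, fewer cells of a type and less RNA per cell cannot be told apart. The well names place post-hCG and no-hCG libraries in different plate rows, so plate row and medium cannot be told apart either. Within each medium the sides fill successive wells. Rows B and F held only unruptured and rows D and H only ruptured libraries, putative or actual, with both sides in rows C and G. Plate position is therefore largely tied to side as well.

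Levels are given below as TPM (a read abundance scaled by transcript length and library) in the order lowest, median and highest library. Statements on overlap of ranges, or on libraries above or below a median, describe these genes only. The share of all genes with such ranges was not counted. Differences are log2 fold changes (log2FC) of counts with their standard errors (SE), fitted with edgeR, and are positive where the ruptured side or the post-hCG condition was higher. A gene was called at a false discovery rate (FDR, Benjamini-Hochberg) of 0.05 over all genes tested.

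**Figure D1:**
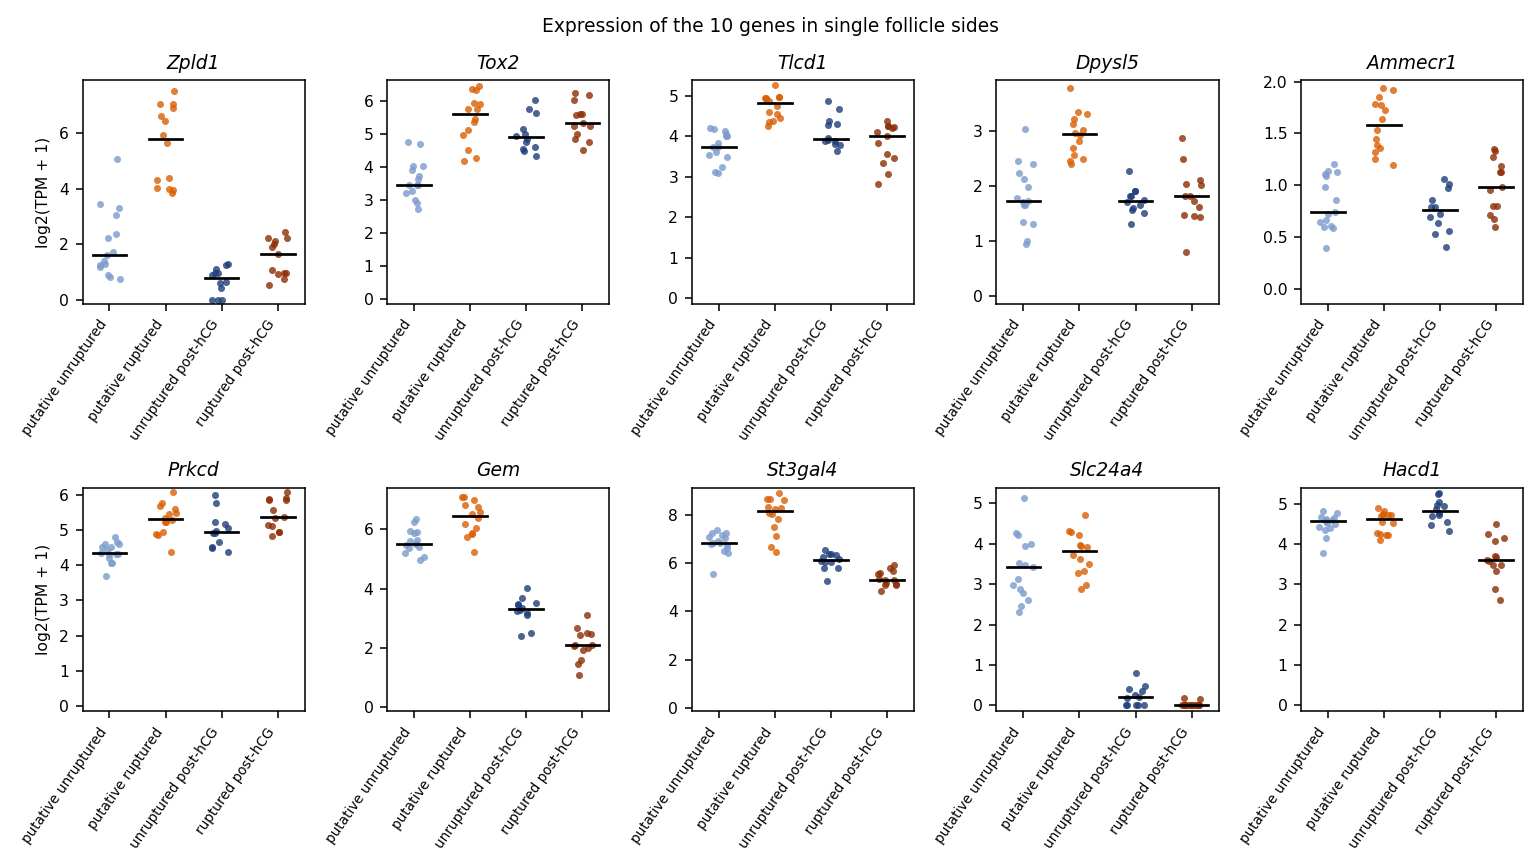
Expression of the 10 genes, one point per library, as log2(TPM + 1) on the vertical axis, with the group median as a black line, for the putative unruptured (n = 15), putative ruptured (n = 14), unruptured post-hCG (n = 12) and ruptured post-hCG (n = 13) sides. Zpld1 reached 185 TPM only on the putative ruptured side, Slc24a4 lay at or near 0 in all post-hCG libraries, and Tox2 and Prkcd were lowest on the putative unruptured side.

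Without hCG, 8 of the 10 genes were called higher on the putative ruptured side, where 8.84% of the 9063 genes tested were called in that direction and 8.96% in the other. The genes had been picked partly on this contrast, so nothing is read from that share. Their median log2FC was 1.24, against -0.01 over all genes tested. The exceptions were Slc24a4 and Hacd1, whose log2FC of 0.29 (SE 0.27) and 0.22 (SE 0.13) did not pass. Between media on the ruptured side, 8 of the 10 were called lower post-hCG, against 30.4% of 8531 genes (29.7% were called higher), and their median log2FC was -1.45. On the unruptured side, 5 were called lower post-hCG, against 27.7% of 9320 genes, and 3 were called higher, against 25.4%. Of these calls, that of Hacd1 (lower) changed sign on the TPM scale and that of Tlcd1 (higher) was lost with library totals, as given below. The interaction, which is the side difference post-hCG minus the side difference without hCG, was called negative for 6 of the 10, against 4.65% of 10013 genes with a negative and 4.25% with a positive value.

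**Figure D2:**
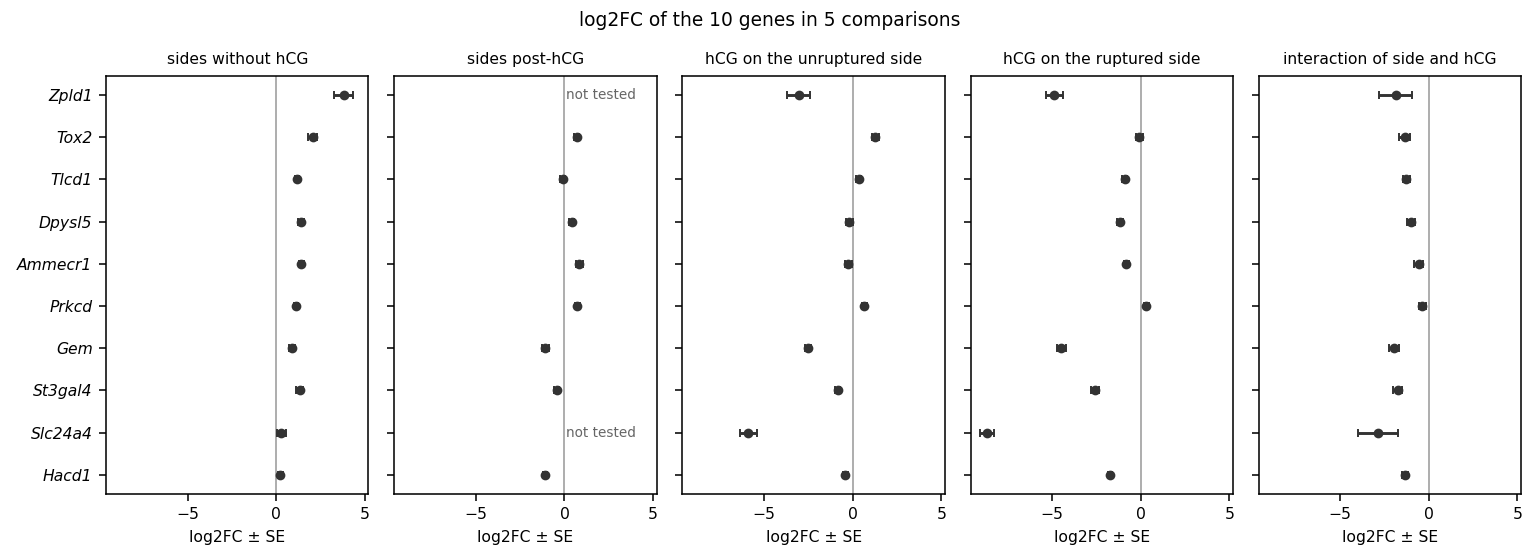
log2FC (points) and SE (bars) of each gene in 5 comparisons, where values above 0 are higher on the ruptured side or post-hCG, and the last panel is the side difference post-hCG minus that without hCG. Without hCG the values ran from 0.22 for Hacd1 to 3.79 for Zpld1, and all 10 interaction values lay below 0. Zpld1 and Slc24a4 were too low post-hCG to enter the comparison of sides there.

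Zpld1 encodes a membrane glycoprotein with a zona pellucida domain, a module for building extracellular filaments. It showed the widest difference between sides without hCG among the 10 genes. Its TPM was 0.7, 2.06 and 33.1 in putative unruptured libraries and 13.6, 54.9 and 185 in putative ruptured libraries, a log2FC of 3.79 (SE 0.56). All 14 putative ruptured libraries lay above the median of the putative unruptured side, and a single putative unruptured library, replicate 15, reached into their range. That library held 46.9% of the group's Zpld1 counts, and without it the log2FC was 4.53, compared with 3.77 in the same fit of all 4 groups with it. The putative ruptured libraries themselves spread widely, with 6 at or below 19.8 TPM and 8 at or above 49.2 TPM.

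Post-hCG, Zpld1 was at 0, 0.72 and 1.44 TPM on the unruptured side, versus 0.45, 2.16 and 4.45 TPM for the ruptured side. The ranges of the ruptured side with and without hCG did not overlap. The log2FC between media was -4.89 (SE 0.48) on the ruptured side and -3.04 (SE 0.64) on the unruptured side, where the value was -2.26 without replicate 15. The interaction of -1.87 (SE 0.92) was not called, but was -2.61 and past the threshold when replicate 15 was left out. Zpld1 lies on chromosome 16 (55225175 to 55297986, minus strand, GRCm38).

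Tox2 encodes a DNA-binding protein of the HMG-box family. Its TPM was 5.64, 10 and 26.2 in putative unruptured libraries, and it was higher in the other 3 groups: 17.2, 47.7 and 86.0 in putative ruptured libraries, 19.0, 28.9 and 64.9 on the unruptured side post-hCG and 22.1, 39.0 and 75.2 on the ruptured side post-hCG. The side difference without hCG was 2.05 (SE 0.24). With hCG the unruptured side was higher by 1.28 (SE 0.20), and all 12 of its libraries lay above the median of the putative unruptured side. On the ruptured side the log2FC between media was -0.08 (SE 0.21), with a 95% interval of -0.49 to 0.33, so the data allow a change of either sign there. The interaction was -1.37 (SE 0.31). Tox2 lies on chromosome 2 (163203125 to 163324170, plus strand).

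Prkcd encodes protein kinase C delta, a serine/threonine kinase activated by diacylglycerol. Its levels followed the same order as those of Tox2 at the low end: 12.0, 19.3 and 26.6 TPM in putative unruptured libraries, 19.5, 38.7 and 66.4 in putative ruptured libraries, 19.6, 29.7 and 62.7 on the unruptured side post-hCG and 27.5, 39.9 and 65.8 on the ruptured side post-hCG. The ruptured side post-hCG did not overlap with the putative unruptured side. The side difference was 1.10 (SE 0.13) without hCG. The unruptured side was higher post-hCG by 0.67 (SE 0.14). On the ruptured side the log2FC was 0.30 (SE 0.14) and not called. Normalization by library totals turned that value to -0.01, so its direction depends on the scaling. Prkcd lies on chromosome 14 (30595354 to 30626210, minus strand).

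Ammecr1 encodes a conserved nuclear protein. It was the lowest of the 10 genes by TPM without hCG, with 0.31, 0.67 and 1.31 TPM in putative unruptured libraries and 1.29, 2.0 and 2.83 TPM in putative ruptured libraries, ranges that overlapped only between 1.29 and 1.31 TPM. The log2FC was 1.41 (SE 0.15). Post-hCG it was at 0.32, 0.69 and 1.09 TPM on the unruptured side, versus 0.51, 0.98 and 1.54 TPM for the ruptured side. Its ruptured side was lower post-hCG by a log2FC of -0.81 (SE 0.16), all 13 libraries lying below the median of the putative ruptured side, and its unruptured side showed -0.24 (SE 0.20, 95% interval -0.63 to 0.15). Ammecr1 lies on chromosome X (142851146 to 142966728, minus strand).

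Dpysl5 encodes a member of the dihydropyrimidinase-like (collapsin response mediator) proteins, known as regulators of the cytoskeleton in neurons. Its pattern over the groups resembled that of Ammecr1: 0.92, 2.3 and 7.29 TPM in putative unruptured libraries, 4.27, 6.73 and 12.8 in putative ruptured libraries, 1.49, 2.31 and 3.83 on the unruptured side post-hCG and 0.75, 2.53 and 6.35 on the ruptured side post-hCG. All 14 putative ruptured libraries lay above the median of the putative unruptured side. The log2FC was 1.41 (SE 0.17) between sides without hCG and -1.17 (SE 0.15) between media on the ruptured side. Between media on the unruptured side it was -0.18 (SE 0.18), and the 12 post-hCG libraries split into 6 above and 6 below the median of the putative unruptured side. Dpysl5 lies on chromosome 5 (30711564 to 30799375, plus strand).

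Tlcd1 encodes a membrane protein with a TLC domain that affects the fatty acid makeup of membrane phospholipids. It was the only one of the 10 genes whose ranges on the putative sides did not overlap, at 7.56, 12.3 and 17.5 TPM in putative unruptured libraries and 18, 27.2 and 37.4 TPM in putative ruptured libraries. The log2FC was 1.16 (SE 0.13). Post-hCG the sides met, at 11.5, 14.3 and 28.2 TPM on the unruptured side, versus 6.06, 15.2 and 19.6 TPM for the ruptured side. The ruptured side was lower post-hCG by a log2FC of -0.90 (SE 0.14). The unruptured side was higher by 0.36 (SE 0.14), a call that was lost with library totals (0.15) and when replicate 3 or 14 of the putative unruptured side, or replicate 1, 4 or 8 of the unruptured side post-hCG, was left out of the fit of all 4 groups (0.28 to 0.33). Exons of Tlcd1 (chromosome 11, 78176711 to 78181909, plus strand) overlap those of Rpl23a on the opposite strand. The sources used here do not state whether counting used the strand, and reads of the overlapping parts could not then be told apart.

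St3gal4 encodes a Golgi sialyltransferase that adds sialic acid to galactose ends of glycans. Without hCG it had the highest TPM of the 10 genes, at 46.1, 112 and 164 in putative unruptured libraries and 85.5, 284 and 481 in putative ruptured libraries, a log2FC of 1.32 (SE 0.20). Of the 14 putative ruptured libraries, 12 lay above the median of the putative unruptured side. Post-hCG the order of the sides was the opposite, with 37.2, 68.3 and 92.2 TPM on the unruptured side, versus 27.6, 38.0 and 59.4 TPM for the ruptured side. The ranges of the ruptured side with and without hCG did not overlap, and the log2FC between media was -2.58 (SE 0.21), against -0.84 (SE 0.14) on the unruptured side. The interaction was -1.75 (SE 0.25). An antisense transcript, 4930581F22Rik, shares exon sequence with St3gal4, with the same limit on strand as for Tlcd1. St3gal4 lies on chromosome 9 (35046576 to 35119268, minus strand).

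Gem encodes a small GTPase of the RGK family, which restrains voltage-gated calcium channels. Its TPM was 30.4, 45 and 79.9 in putative unruptured libraries and 37.0, 87.4 and 137 in putative ruptured libraries, a log2FC of 0.89 (SE 0.19). Post-hCG it was at 4.27, 8.94 and 15.3 TPM on the unruptured side, versus 1.14, 3.28 and 7.67 TPM for the ruptured side. Neither side's range overlapped between media. The log2FC was -2.52 (SE 0.18) on the unruptured side and -4.47 (SE 0.24) on the ruptured side, and the order of the sides was reversed, with an interaction of -1.95 (SE 0.29). Gem lies on chromosome 4 (11704457 to 11714752, plus strand).

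Slc24a4 encodes a potassium-dependent sodium/calcium exchanger. It was at 3.96, 9.83 and 34.1 TPM in putative unruptured libraries and 6.39, 13.2 and 25.1 TPM in putative ruptured libraries, and near 0 post-hCG. On the unruptured side post-hCG, 5 of 12 libraries had a count of 0 and the group held 19 counts, against 1843 counts without hCG. Relative to the total counts this was 71.8-fold lower (95% exact interval 45.8 to 119). On the ruptured side post-hCG, 11 of 13 libraries had a count of 0 and the group held 2 counts, against 1574 without hCG, a ratio of 928 (95% exact interval 256 to 7670). These intervals cover counting error only. The fitted log2FC of -5.89 (SE 0.48) and -8.68 (SE 0.38) are given for comparison with the other genes, and they depend on the prior count. Of the putative unruptured libraries, replicate 14 held 21.8% of the group's counts. The side difference without hCG was 0.29 with it and 0.56 without it, the latter past the threshold, and the interaction of -2.88 (SE 1.12), not called with all libraries, was -3.14 and called without it. Slc24a4 lies on chromosome 12 (102128733 to 102267091, plus strand).

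Hacd1 encodes a dehydratase of the endoplasmic reticulum that acts in the elongation of very long chain fatty acids. Its TPM was 12.7, 22.8 and 27.2 in putative unruptured libraries and 16.2, 23.6 and 29.0 in putative ruptured libraries, nearly the same range. Post-hCG it was at 18.9, 27.3 and 37.5 TPM on the unruptured side, versus 5.08, 11.3 and 21.8 TPM for the ruptured side. On the ruptured side both scales were lower post-hCG, the log2FC of counts being -1.73 (SE 0.11). On the unruptured side the scales disagreed. Median counts were 139.2 without hCG and 75.47 post-hCG, a log2FC of -0.40 (SE 0.14), whereas TPM was higher post-hCG in 9 of 12 libraries compared with the median of the putative unruptured side, and limma on log2(TPM + 1) gave 0.33. The direction of Hacd1 on the unruptured side is thus not settled by these tables. The negative interaction was obtained on both scales, at -1.33 (SE 0.18) for counts. Hacd1 lies on chromosome 2 (13850282 to 14056135, minus strand).

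The disagreement lies in the number of counts that correspond to 1 TPM, a number that scales with the transcript length used for the gene. With the library's own median over 4046 well-covered genes divided out and the putative unruptured median set to 1.0, the counts per TPM of Hacd1 had medians of 0.996 in putative ruptured libraries, 0.577 on the unruptured side post-hCG (range 0.477 to 0.702) and 0.528 on the ruptured side post-hCG (0.42 to 0.702). On the ruptured side the ranges with and without hCG did not overlap, the lowest value without hCG being 0.92. On the putative unruptured side 3 of 15 libraries lay within the post-hCG range, replicate 15 at 0.558, replicate 10 at 0.578 and replicate 1 at 0.675. Hacd1 was itself one of the 4046 genes, so the 2 numbers that follow can include it. Among the 4046 genes, 7 (0.173%) had a ratio of group medians between media at or below that of Hacd1 on the unruptured side, and for the ruptured side the number was 2 (0.0494%). The cause was not tested, and this property was looked at after the values of Hacd1 had been seen. For the other 9 genes the group medians lay between 0.773 and 1.07.

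**Figure D3:**
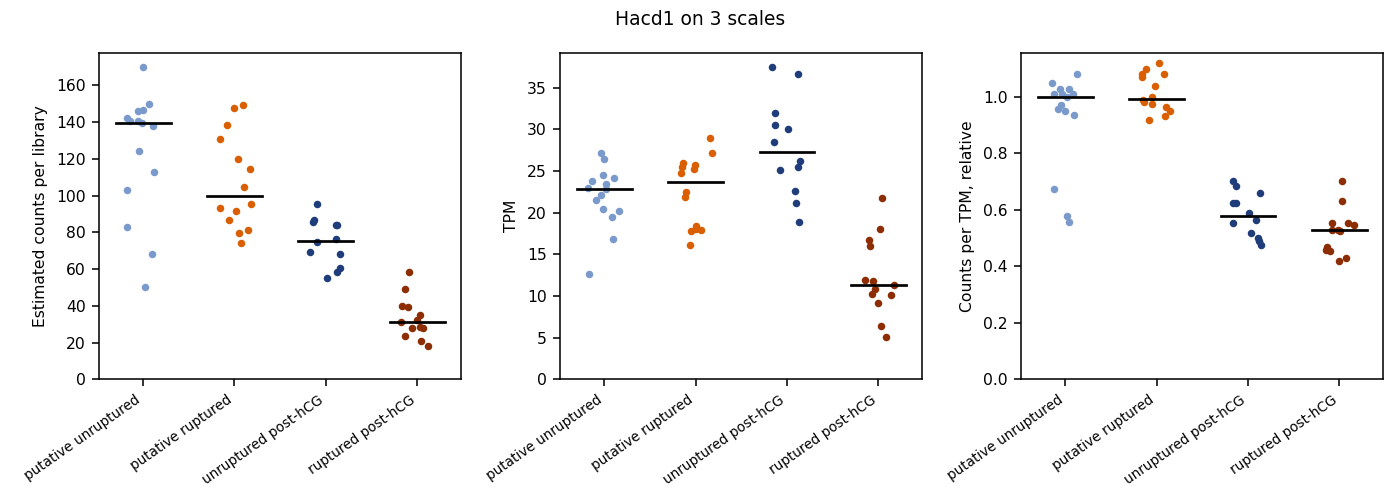
Hacd1 in each library as estimated counts (left), as TPM (middle) and as counts per TPM relative to the putative unruptured median (right), with group medians as black lines and the groups on the horizontal axis. Counts were lower post-hCG on both sides, TPM was lower only on the ruptured side, and counts per TPM were lower post-hCG on both sides, with medians of 0.577 and 0.528.

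The sides were also compared post-hCG, a contrast the selection did not name. Its libraries did enter the comparisons of media and the interaction by which genes were picked, so it is not independent of the selection. Of the 8 genes that passed the filter on low counts, 4 were called higher on the ruptured side, against 10% of 8585 genes, and 3 were called higher on the unruptured side, against 11.3%. Prkcd (log2FC 0.72, SE 0.15, edgeR FDR 0.000511), Ammecr1 (0.83, SE 0.20, FDR 0.00261), Tox2 (0.68, SE 0.16, FDR 0.00232) and Dpysl5 (0.41, SE 0.14, FDR 0.0391) were higher on the ruptured side, as they were without hCG. Hacd1 (-1.11, SE 0.11, edgeR FDR 2.14e-08), Gem (-1.08, SE 0.20, FDR 0.000143) and St3gal4 (-0.44, SE 0.13, FDR 0.0111) were higher on the unruptured side. For each of these 3 genes, all 13 libraries of the ruptured side lay below the median of the unruptured side. Tlcd1 did not differ detectably, at -0.10 (SE 0.15, 95% interval -0.39 to 0.19, edgeR FDR 0.686).

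Several of these calls depended on the scale. On log2(TPM + 1), where the median log2FC of all genes in limma was -0.21, the values for Tox2 (0.39, FDR 0.167), Prkcd (0.44, FDR 0.0642) and Dpysl5 (0.09, FDR 0.745) did not pass. Ammecr1 was not tested in that fit, which required a mean of 1 TPM over both sides. Its mean TPM was 0.698 on the unruptured and 1.02 on the ruptured side. In the fit of all 4 groups, St3gal4 (FDR 0.0971) and Dpysl5 (FDR 0.103) did not pass with edgeR. Without the filter on low counts, Zpld1 was higher on the ruptured side by 1.91 (edgeR FDR 0.000304) and Slc24a4 lower by a log2FC of -2.53 (edgeR FDR 0.0104), the latter resting on 21 counts in all. Neither passed in the fit of all 4 groups (edgeR FDR 0.0545 for Zpld1 and 0.0924 for Slc24a4), and Slc24a4 did not pass in limma without the filter (-0.20, FDR 0.0604). Dpysl5 also failed to pass with library totals (0.27, edgeR FDR 0.251), with thinned counts (0.30, FDR 0.152) and without the filter (0.42, FDR 0.0518). Calls for Hacd1 and Gem were kept under each alternative.

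Variation among libraries of the same group did not enter the selection directly and was tested separately. An FSH program score was taken as the mean log2(TPM + 1) of 21 genes known to respond to FSH or to carry its signal in granulosa cells, none of which is among the 10. Its group means were 3.44 (SD 0.43) on the putative unruptured side, 4.60 (SD 0.53) on the putative ruptured side, 3.54 (SD 0.18) on the unruptured side and 3.68 (SD 0.23) on the ruptured side post-hCG. The score was thus highest on the putative ruptured side, where 8 of the 10 genes were also called higher. Variation within groups along that side difference would link genes and score, so the correlations are not independent of the selection. The part of such variation was not tested. Genes of the score differed between media in both directions. On the unruptured side the mean log2(TPM + 1) of Lhcgr was 2.61 without hCG and 7.07 post-hCG. That of Cyp19a1 was 2.41 and 0.13. The similar score means there thus do not show unchanged genes, and the score post-hCG is not a measure of FSH state alone. Deviations of each gene from its group mean were correlated with deviations of the score over the 54 libraries. Adjusted over the 20 tests of 10 genes and 2 scores, 7 of the 10 genes correlated positively with the FSH program score at an adjusted p of at most 0.05. Adjusted over all 9867 genes with a mean of 1 TPM or more outside the score, a setting added after the data had been seen, 5 of the 10 passed (Zpld1, Tox2, Prkcd, St3gal4 and Dpysl5), where 9.36% of those genes passed with a positive r and 0.284% with a negative r. The median r was 0.41 over the 10 genes and 0.14 over all of them. The 10 genes were picked partly for the side difference that the score also has, so nothing is read from these shares or medians. The share of granulosa cells was not separated from the score. Ammecr1 (permutation adjusted p = 0.0614 over all genes) and Tlcd1 (0.117) were the calls lost. The p-values below are adjusted over the 20 tests.

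Tox2 (Pearson's r = 0.80, Spearman's rho = 0.80) and Zpld1 (r = 0.79, rho = 0.76) followed the score most closely, both at an adjusted p of 6.67e-05 in the permutation test, from the smallest raw p that 100000 permutations can give, 1e-05. The correlation was positive within each of the 4 groups, between 0.67 and 0.89 for Tox2 and between 0.60 and 0.88 for Zpld1. Prkcd (r = 0.55, rho = 0.60, permutation adjusted p = 6.67e-05) was about as high in each group, between 0.57 and 0.64. St3gal4 (r = 0.61, rho = 0.36, permutation adjusted p = 0.00044) was at 0.87 within the putative ruptured side and between 0.27 and 0.33 within the other groups. Dpysl5 (r = 0.44, rho = 0.40, permutation adjusted p = 0.0062) and Ammecr1 (r = 0.38, rho = 0.42, permutation adjusted p = 0.0183) were highest within the putative unruptured side, at 0.73 and 0.79.

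Tlcd1 was the weakest of the 7 (r = 0.29, permutation adjusted p = 0.041), and it no longer passed without the 2 libraries farthest from the median score (r = 0.22, unadjusted permutation p = 0.0855) or by rho (0.30, permutation adjusted p = 0.084). For the other 6 genes, r without those 2 libraries was between 0.43 and 0.79. Gem (r = 0.23, permutation adjusted p = 0.152), Slc24a4 (r = 0.34, permutation adjusted p = 0.0727) and Hacd1 (r = 0.10, permutation adjusted p = 0.519) did not pass. Gem did pass by rho (0.34, permutation adjusted p = 0.039) and without the 2 farthest libraries. Slc24a4 had a count of 0 in 16 of the 25 post-hCG libraries.

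A theca score over 9 theca and stroma markers was built in the same way. St3gal4 correlated negatively with it (r = -0.59, rho = -0.38, permutation adjusted p = 0.00044), most strongly within the putative ruptured side (r = -0.76). Zpld1 (r = -0.39, permutation adjusted p = 0.040) and Prkcd (r = -0.33, permutation adjusted p = 0.040) passed by r but not by rho (permutation adjusted p = 0.147 and 0.264), and r for Zpld1 without the 2 farthest libraries was -0.30 (unadjusted permutation p = 0.0758). The other 7 genes did not pass. Adjusted over all 9879 genes, of which 0.182% passed with a negative and 2.02% with a positive r, St3gal4 (permutation adjusted p = 0.0115) still passed and Zpld1 (0.288) and Prkcd (0.281) did not. The 2 scores were themselves negatively correlated within groups (r = -0.40, permutation p = 0.0156). Within groups the FSH program score varied little with the log10 of the total counts (r = -0.09, permutation p = 0.526), while the theca score correlated with the number of genes detected (r = 0.48, permutation p = 0.00024). Among the 10 genes, Hacd1 (r = 0.49) and Dpysl5 (r = 0.41) went with the number of genes detected and the other 8 lay between -0.18 and 0.23, while r with the log10 of the total counts was between -0.15 (Dpysl5) and 0.28 (Hacd1). The FSH program score had r = -0.04 with the number of genes detected.

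**Figure D4:**
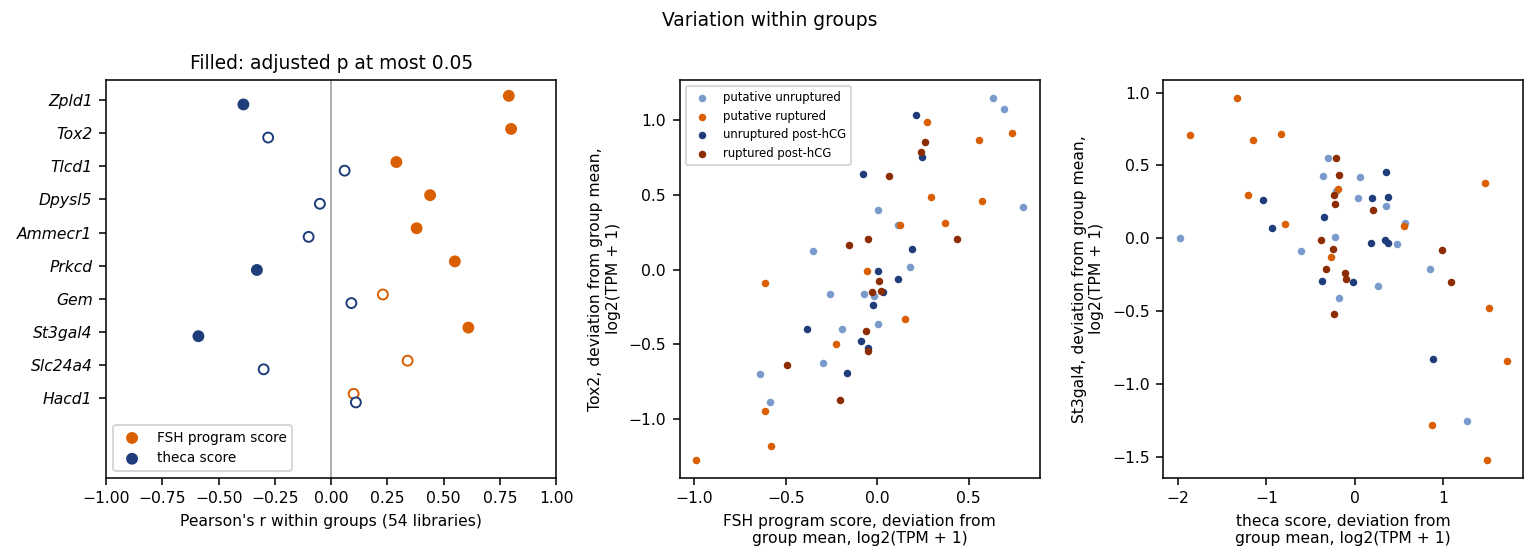
Left, Pearson's r within groups of each gene with the FSH program score (orange) and the theca score (blue) over 54 libraries, filled where the p adjusted over the 20 tests was at most 0.05. Middle and right, deviations from group means, in log2(TPM + 1), of Tox2 against the FSH program score (r = 0.80) and of St3gal4 against the theca score (r = -0.59), coloured by group.

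Among the 45 pairs of the 10 genes, r within groups had a median of 0.25 and ranged from -0.19 to 0.65, and 11 pairs passed at an adjusted p of at most 0.05, each with a positive r. These were the pairs with r of 0.37 or more, 24.4% of the 45, while 8.87% of the 48881328 pairs of 9888 genes reached that value and their median r was 0.13. The genes were picked partly for the same side difference, so nothing is read from that share. Of the 11 pairs, 7 also passed by rho, and r without the 2 farthest libraries was between 0.32 and 0.62. The highest was between Zpld1 and Tox2 (r = 0.65, rho = 0.56, permutation adjusted p = 0.000112), which was at 0.79 and 0.74 on the putative sides and at 0.21 on the ruptured side post-hCG. Prkcd took part in 5 of the 11 pairs, with Tox2 (r = 0.58), Zpld1 (0.55), Dpysl5 (0.54), St3gal4 (0.47) and Tlcd1 (0.37). Dpysl5 and Slc24a4 (r = 0.47) formed the single pair that involved Slc24a4. None of the 11 pairs involved Hacd1 or Ammecr1. The highest r was 0.36 with Hacd1 and 0.34 with Ammecr1, and Tox2 with Ammecr1 passed by rho (0.42, permutation adjusted p = 0.0167).

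**Figure D5:**
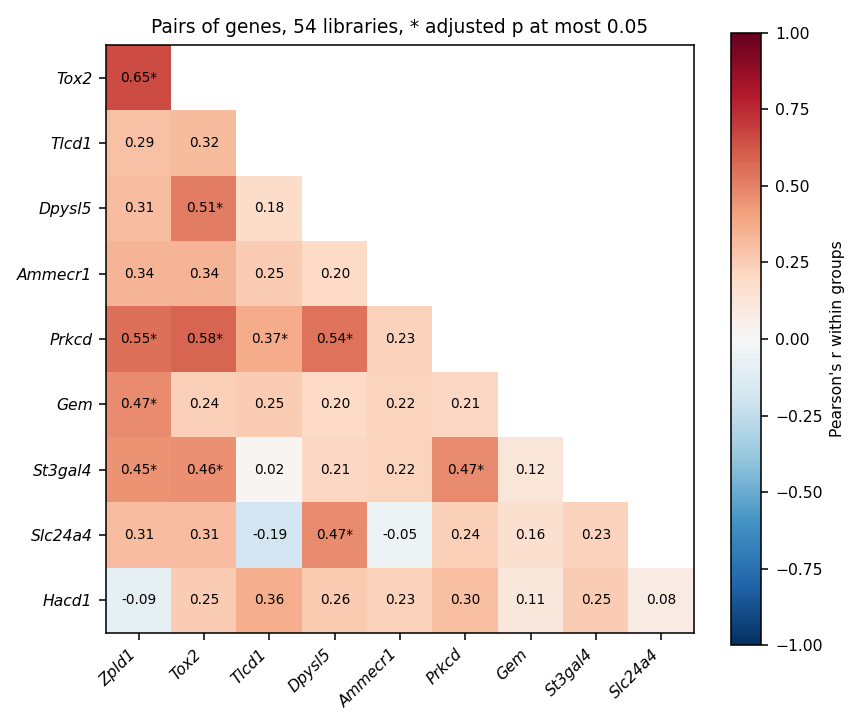
Pearson's r within groups for each pair of the 10 genes over 54 libraries, from blue (-1) to red (1), with an asterisk where the adjusted p was at most 0.05. Zpld1, Tox2 and Prkcd correlated with one another at 0.55 to 0.65, while values with Hacd1 and Slc24a4 were mostly lower.

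Among the genes whose log2(TPM + 1) was most like the mean of the 10 genes' standardized levels over all 54 libraries, out of 9878 other genes, were Chst8 (r = 0.913), Inhba (0.904), Prdm1 (0.895), Fam13a (0.891), Arhgap28 (0.890), Creb3l2 (0.888) and Hsd17b1 (0.887). These r values include the differences between groups and are a description. Inhba encodes the activin beta A subunit, and Hsd17b1 the enzyme that converts estrone to estradiol. For single genes, Slc24a4 was most like Ddit4l (r = 0.980), Gem like Ackr3 (0.958), Zpld1 and Ammecr1 both like Nap1l5 (0.957 and 0.826), and St3gal4 like Inha (0.908), the inhibin alpha subunit. Tox2 was most like Plekhd1 (0.894), Prkcd like Map1b (0.836), Dpysl5 like Dock4 (0.830), Hacd1 like Vhl (0.758) and Tlcd1 like Rgs2 (0.733). The mean log2(TPM + 1) of Prdm1 was 1.39 in putative unruptured and 3.48 in putative ruptured libraries, and 0.19 and 0.04 in their post-hCG counterparts.

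Of the 23 FSH program genes, 20 entered the comparison of sides without hCG, 14 were called higher on the putative ruptured side and 1, Nr5a1 (log2FC -0.37, SE 0.12), lower. Over all genes tested the shares were 8.84% and 8.96%. Inhba (4.46, SE 0.64) and Hsd17b1 (3.70, SE 0.49) had the largest differences. The median log2FC of the list was 1.27, beside 1.24 for the 10 genes and -0.01 for all genes. The 10 genes were picked partly on this contrast, and the list was chosen with earlier results known. Nothing is therefore read from the likeness of these medians. Between media on the ruptured side, 11 of 20 were called lower and 5 higher post-hCG, against 30.4% and 29.7% of all genes. Cyp19a1, which encodes aromatase, was lower by a log2FC of -8.29 (SE 0.51) and Hsd17b1 by -6.27 (SE 0.53), while Lhcgr, the LH receptor gene, was higher by 4.20 (SE 0.47) and Cited4 by 3.38 (SE 0.25). On the unruptured side, 10 of 20 were called lower, led by Cyp19a1 (-5.47, SE 0.61) and Igf1 (-4.65, SE 0.27), and 6 higher, led by Sgk1 (4.39, SE 0.20) and Lhcgr (3.9, SE 0.53). Over all genes 27.7% were called lower and 25.4% higher there.

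The interaction was called negative for 6 of 21 FSH program genes, against 4.65% of all genes, with Inhba (-3.54, SE 0.68) and Inha (-1.78, SE 0.33) at the front. Post-hCG, 8 of 16 were called higher on the ruptured side, among them Inhbb (1.49, SE 0.25) and Lhcgr (1.28, SE 0.26), and 2 lower, Ccnd2 (-0.53, SE 0.17) and Nr5a1 (-0.23, SE 0.09). The shares over all genes were 10% and 11.3%. The median log2FC of the list was 0.52 there, beside 0.15 for the 8 of the 10 genes tested and 0.01 for all genes.

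Relatives of the 10 genes in the same protein families were followed in the same comparisons. Of 37 relatives in the tables, 20 entered the comparison of sides without hCG, of which 2 were called higher on the putative ruptured side and 3 lower, with a median log2FC of -0.06. Of all genes tested, 8.84% were called higher and 8.96% lower there. St3gal5 (1.03, SE 0.26) and St3gal3 (0.64, SE 0.19), both sialyltransferases like St3gal4, were higher, and Hacd3 (-0.86, SE 0.18) and the RGK GTPase gene Rrad (-0.72, SE 0.21) were lower.

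Between media the relatives moved in both directions, as did all genes tested. On the ruptured side 11 of 19 were called higher post-hCG and 6 lower, against 29.7% and 30.4% of all genes. Rem1, an RGK GTPase gene like Gem, was higher by 4.19 (SE 0.23), where Gem had -4.47. Tmem56, a TLC-domain gene also named Tlcd4, was higher by 3.49 (SE 0.26), where Tlcd1 had -0.90. Dpysl3 (-3.55, SE 0.22) and St3gal5 (-3.26, SE 0.22) were lower, in the direction of Dpysl5 and St3gal4. On the unruptured side 9 of 21 were called higher and 6 lower, against 25.4% and 27.7% of all genes. Among them were Rem1 at 3.11 (SE 0.21), St3gal1 at 2.77 (SE 0.20), Dpysl3 at -3.12 (SE 0.21) and St3gal5 at -3.20 (SE 0.30). Post-hCG, 4 of 18 were called higher on the ruptured side, led by Tmem56 (1.03, SE 0.19) and St3gal5 (0.95, SE 0.19), and 2 lower, Dpysl2 (-0.58, SE 0.19) and Ammecr1l (-0.31, SE 0.10). For all genes the shares there were 10% and 11.3%. The interaction was called for 5 of 23, positive for 3, among them Hacd3 (0.99, SE 0.22) and Slc8b1 (0.89, SE 0.24), and negative for Prkcq (-1.58, SE 0.46) and Tlcd2 (-1.19, SE 0.36). It was called positive for 4.25% and negative for 4.65% of all genes. Hacd3 thus had the opposite sign of interaction from Hacd1.

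The 250 bases before the start site were searched on both strands for 5 motifs, with RefSeq windows of the GRCm38.p6 build for 9 of the 10 genes (15 windows). The motifs were the cAMP response element TGACGTCA, its core TGACGT (contained in the former), the nuclear receptor site AAGGTCA, the GATA site AGATAA and the forkhead site TGTTTAC. These letters occur in 1.55%, 6.47%, 4.08%, 9.99% and 3.17% of all 32851 windows, in that order. A match was found in 0 of the 15 windows, which says only that these letters are not in them.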

How the data were processed

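Libraries were made with Smart-Seq2 from single follicle sides. The authors aligned reads to GRCm38 with HISAT2 and, in their text, corrected counts with ComBat-seq. The values deposited for each gene and library were an estimated count and a TPM value that the authors derived by scaling for transcript length and depth. The counting program, its use of strand, and whether either table precedes batch correction are not given in the sources used here. Of the non-zero counts, 72.2% were whole (tolerance 1e-09), and TPM summed to 585982 to 678417 per library. All columns matched samples, with 0 left over.

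Rounded counts were filtered with filterByExpr (count of 10, total of 15), TMM factors were applied, and tests used the quasi-likelihood F-test of edgeR 4.0.16 in R 4.3.3, each comparison on its own libraries. SE is the log2FC divided by the square root of F. Within-group correlations used log2(TPM + 1), the scores holding list genes whose mean TPM was 1 or more, and 100000 permutations within groups in Python 3.11.15 (numpy 2.4.6, scipy 1.17.1, pandas 2.3.3), with Benjamini-Hochberg adjustment over 20 and over 45 tests and, added after the data had been seen, over all genes for the scores. On simulated data edgeR recovered 87% and 95% of genes changed 2-fold and 4-fold between sides without hCG, and 74% and 95% for the interaction. Positions come from GENCODE M21.

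The genes, the lists and the tests were chosen with earlier results of these data known. Named from each list were the 2 called genes that were highest and the 2 that were lowest by log2FC in each comparison. The rule for most alike genes took 8 for the mean and 1 for each gene, by Pearson's r, of which 1 is not reported here. Promoters were to be printed only where a motif matched. The labels do not say which libraries share a follicle or mouse, so p-values measure the spread between these libraries. No libraries agreed within sampling noise. Alternatives were RLE size factors, library totals, DESeq2 1.42.0, no filter, all 4 groups in one fit, thinned counts, limma 3.58.1 on log2(TPM + 1) or log2(TPM + 0.1), the replicate number as a block, and each library left out. The single-cell data and images of the study were not used here.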

Additional observations from a re-analysis of the deposited data

Results flagged for a closer look

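The side difference differed between the media, by the interaction in edgeR at an FDR of 0.05, for 6 of the 10 genes, which had been selected partly for it. The values were -1.95 for Gem, -1.75 for St3gal4, -1.37 for Tox2, -1.33 for Hacd1, -1.26 for Tlcd1 and -1.0 for Dpysl5. For Gem, St3gal4 and Hacd1 the ruptured side was the lower one post-hCG, whereas for Tox2 it was the higher one (0.68, not called with limma). For Dpysl5 it was higher by 0.41, a call that was lost in the fit of all 4 groups, with library totals, with thinned counts, without the filter and with limma. The same was found for 6 named genes of the lists, with values of -3.54 for Inhba, -1.78 for Inha, -1.58 for Prkcq, -1.19 for Tlcd2, 0.89 for Slc8b1 and 0.99 for Hacd3. The summed theca and stroma markers differed between sides in both media, with medians of 539 and 43.1 TPM without hCG and 351 and 7.51 TPM post-hCG, and their part in the interaction was not tested.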

How the results depend on the processing

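Of the values for single genes, 641 kept their direction and side of the threshold under the alternatives, 43 kept their direction but no longer passed, 17 newly passed and 12 changed sign. Changes of sign were Hacd1 for hCG on the unruptured side under limma (0.33 on log2(TPM + 1) with and without the filter, 0.34 on log2(TPM + 0.1)), Prkcd for hCG on the ruptured side with library totals (-0.01), and Tox2 there without one library (-0.16 to 0.01). Within groups they were the r of Hacd1 with the FSH program score on log2 CPM (-0.16), and with the theca score Gem without the 2 farthest libraries (-0.02), Dpysl5 by rho (0.06) and without one library (-0.10 to 0.02), and Tlcd1 without one library (-0.02 to 0.12).

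In the fit of all 4 groups, leaving out any one of 18 of the 54 libraries brought Prkcd for hCG on the ruptured side past the threshold (0.31 to 0.37), and any one of 10 did so for Zpld1 between sides post-hCG (1.91 to 2.06).

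Of the 10 genes, 4 were called between sides post-hCG under each limma setting, against 7. The limma settings with a filter did not test Ammecr1 there. Spearman's rho left 1 of 3 calls with the theca score, as did adjustment over all genes (1). FSH program genes called post-hCG fell from 10 to 4 or 5 with limma and to 6 in the fit of all 4 groups (from 5 upward without one library), and for the interaction rose from 6 to 10 with limma on log2(TPM + 1). Family relatives called were 3 rather than 5 without hCG under limma, 10 rather than 6 post-hCG in the fit of all 4 groups (up to 10 without one library), and for the interaction 3 with thinned counts, 3 with limma and 2 with limma without the filter, rather than 5.

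Library totals shifted the median log2FC of all genes by -0.15 post-hCG, -0.22 and -0.32 between media on the unruptured and ruptured sides and -0.10 for the interaction. Higher and lower calls were then 397 and 1830, 1455 and 3844, 1376 and 4242, and 230 and 660, against 862 and 971, 2365 and 2582, 2532 and 2597, and 426 and 466. Without hCG they were 585 and 905 against 801 and 812. Limma on log2(TPM + 1) gave 214 and 2166 post-hCG, 1568 and 3005 for hCG on the ruptured side, and 85 and 679 for the interaction. The cause of these changes was not tested, and absolute direction near 0 depends on the scaling.

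Same-numbered libraries mostly showed little correlation: it was over 0.1 for 3 of 14, 5 of 12, 2 of 12 and 4 of 13 numbers, and libraries correlated best with their own number in 2, 2, 1 and 2 cases. This does not exclude pairing by number, since the 2 sides of a follicle need not deviate together. The replicate block gave 1414, 1743, 4455, 4989 and 992 calls over all genes in the 5 comparisons, against 1613, 1833, 4947, 5129 and 892, and 8, 7, 8, 9 and 8 calls among the 10 genes. It turned Dpysl5 for hCG on the unruptured side to 0.08 and Tox2 for hCG on the ruptured side to 0.09, neither called. It moved Zpld1 for hCG on the unruptured side from -3.04 to -1.79, still called, and it brought past the threshold Prkcd for hCG on the ruptured side (0.35) and the interactions of Zpld1 (-2.56) and Slc24a4 (-3.10).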
